A study of Homo sapiens with 9 samples.

Results

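Clone CS16 was compared with WT cells over 6 of the 9 RNA-sequencing libraries of the series. Members were chosen by their titles alone: the 3 libraries titled CS16 and the 3 titled WT, with every gene of the count tables. Both groups carry the label of the human triple-negative breast cancer line MDA-MB-231, were grown untreated in the same serum-containing medium, and differ by label in genotype only. WT cells were not edited. CS16 is labelled *SNAI1*-KO. In the study's account it goes back to 1 single cell, picked after transfection with CRISPR/Cas9 and repair plasmids directed at *SNAI1* and selection with puromycin. By that account, a comparison of CS16 with WT cannot tell the edited gene from the history of that 1 clone. Genes that went against the shared cell line label are given below. The 3 libraries of the other clone, CS19, which has the same labelled genotype, were used only to see where CS16 differed from it. The labels number the replicates without saying that they were separate cultures, so p-values measure the spread between these libraries, which may be technical.

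*SNAI1* encodes a zinc-finger repressor that binds E-box sequences in DNA and, in textbook accounts, silences *CDH1* and other epithelial genes during the epithelial to mesenchymal transition. *SNAI2* is its paralog, and the *ZEB* and *TWIST* families act in the same programme. MDA-MB-231 is known as a mesenchymal-like basal line in which RAS-MAPK signalling is constantly active and the *CDKN2A* region of chromosome 9 is lost.

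The 6 libraries held between 19726839 and 24770095 counted read pairs. Levels are given as CPM, the counts of a gene relative to library size, with TMM factors over all libraries. A floor of 3 counts in 1 library stood for at most 0.172 CPM in WT and 0.147 CPM in CS16. These floors cover counting error only, and read copies from amplification remained among the counts. The SE of a log2 fold change was worked back from the fitted change and its test statistic, and includes the spread between libraries. It is approximate and may be too small for genes with almost no counts in 1 group. Replicates of CS16 correlated at 0.997 to 0.998 on log2(CPM + 1), a Pearson correlation across genes. WT replicate 2 stood apart, at 0.970 and 0.973 against the other WT libraries, which reached 0.997 with each other. It also had 2.40% of its counts on mitochondrial genes, against 0.645% and 0.795% in the other WT libraries and 0.338% to 0.420% in CS16. Whether this library's composition plays a part in single results was not tested, and named genes whose call it decides are given with and without it.

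The targeted gene was not lower in the libraries labelled CS16. *SNAI1* (chr20:49982980-49988886 on GRCh38) was at 0.791, 2.17 and 1.08 CPM in WT and at 1.28, 1.91 and 1.95 CPM in CS16. The groups overlapped, and the log2 fold change of 0.39 (SE 0.43) had an adjusted p of 0.474 (quasi-likelihood test of edgeR, Benjamini-Hochberg). Without WT replicate 2 it was 0.88 (SE 0.36), with an adjusted p of 0.0386, again towards higher values in CS16. The counts sum all exons of the gene, so they check the edit only in part: a transcript that no longer encodes the protein would be counted too. *SNAI2* stood at 35.4, 25.1 and 39.3 CPM in WT and at 77.9, 72.9 and 70.8 CPM in CS16, with no overlap, a log2 fold change of 1.18 (SE 0.21) and an adjusted p of 0.00221. In CS19 it was at 3.19, 5.08 and 2.62 CPM, and the difference between the clones was 4.36 on the log2 scale (SE 0.16, adjusted p = 8.91e-10).

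The chromosome 9 genes named above went against the shared cell line label. The WT libraries had no count for *CDKN2A*, the gene of the cell cycle inhibitor p16 and of ARF, while the libraries labelled CS16 had 58.7, 52.9 and 56.9 CPM. *MTAP* next to it, an enzyme of methionine salvage, was at 105 CPM in each of the 3 CS16 libraries and had no count in WT. *CDKN2B*, a second inhibitor of the same family, had 11.6, 11.2 and 11.3 CPM in CS16 and no count in WT. Of 13 genes listed around *CDKN2A*, 10 had no count in WT, so most of those tested passed the filter through CS16 alone. In the other direction, *CD44* and *S100A6*, at 573 to 792 and 2771 to 5806 CPM in WT, had no count in any CS16 library. The CS19 libraries had *CDKN2A* at 52.6, 60.9 and 51.6 CPM and *MTAP* at 99.4, 107 and 103 CPM. They held 1 count of *S100A6* in all, so for these genes CS19 was like CS16. The study describes CS16 as lacking detectable SNAI1 protein, with less mRNA at each *SNAI1* exon and deletions at the locus seen in aligned reads, measures that were not analysed here. From which cells the libraries labelled CS16 or CS19 were made was not tested. Every difference from WT below is a difference between libraries with these labels.

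Of 18611 genes tested, 5045 were called different between CS16 and WT (27.1%), meaning that the fitted log2 fold change was 2 or more up or down with an adjusted p below 0.05. Of these, 2198 were higher in CS16 (11.8% of genes tested) and 2847 were lower (15.3%). Protein-coding genes made up 1638 of the higher and 1936 of the lower genes. Without WT replicate 2, 2442 of 19391 genes were higher (12.6%) and 2734 were lower (14.1%), 5176 in all (26.7%), and 4547 genes were called both ways. The counts of each gene list below stand against these shares of all genes, and where no other value is given, leaving out WT replicate 2 moved the number of higher or lower genes of a list by at most 1. The median log2 fold change over all genes tested was -0.03. Genes tested that had no count in 1 group passed the filter through the other group alone, so their direction was fixed by it. In bulk RNA, fewer cells with a transcript and less of it per cell cannot be told apart.

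**Figure D1:**
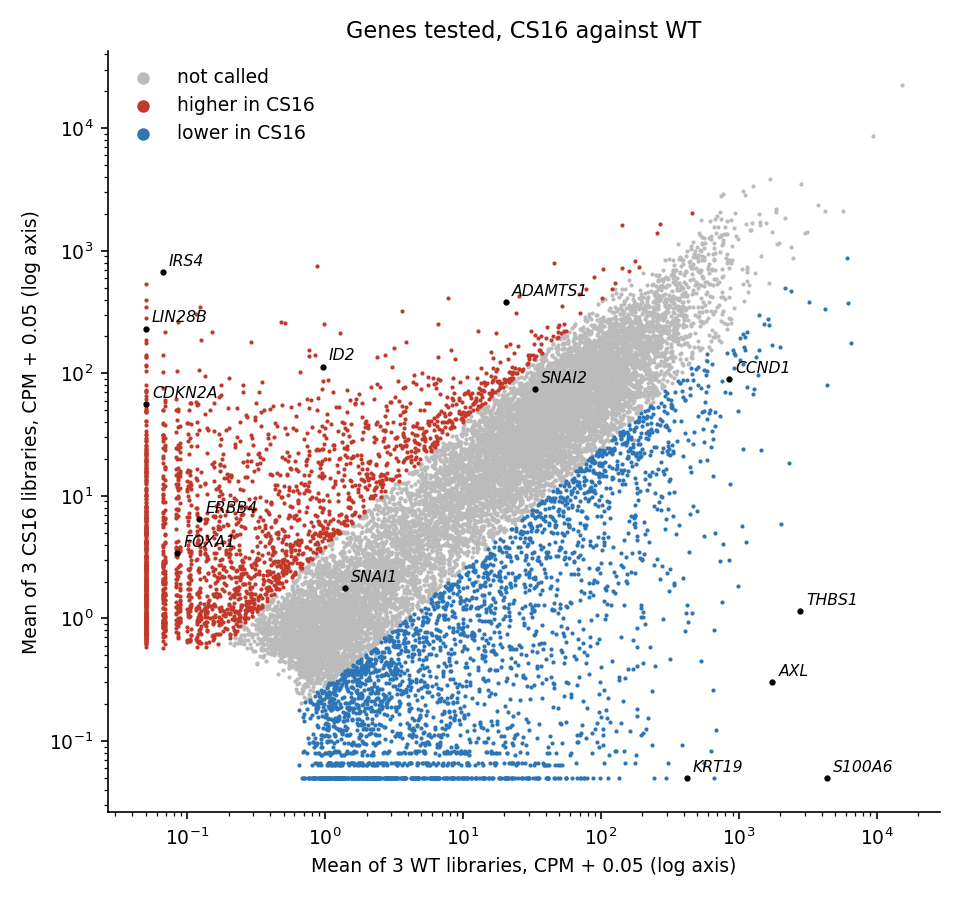
Mean level of each gene tested in the 3 WT libraries (x axis) and the 3 libraries labelled CS16 (y axis), both as CPM + 0.05 on log axes, with called genes in colour and some genes named. Called genes lie along both edges of the plot, where 1 group has no or almost no counts, as *S100A6* and *CDKN2A* do, while *SNAI1* lies among the genes not called.

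The genes with the smallest adjusted p on the higher side were nearly silent in WT. *FLT4*, the receptor of lymphatic growth factors, had 1 count in each WT library and 50.2, 47.0 and 53.0 CPM in CS16. *ID2*, an inhibitor of basic helix-loop-helix factors, had 52 counts over the WT libraries, at 0.890, 0.858 and 0.977 CPM, and 7530 over those of CS16, a log2 fold change of 6.98 (SE 0.21). *CA2*, a carbonic anhydrase, was at 0.242 ± 0.0686 CPM in WT and 180 ± 24.9 CPM in CS16 (mean ± SD, n = 3). The cilium gene *DZIP1*, the kainate receptor partner *NETO2*, the collagen chaperone *FKBP10* and the sodium-calcium exchanger *SLC8A1* had log2 fold changes of 7.51, 8.16, 9.29 and 9.57. *IRS4*, an adaptor of insulin receptor signalling, had 1 count in all WT libraries together and 716, 616 and 689 CPM in CS16. *H2BC7* (10.48) and *HLA-DQB1* (8.28) complete the 10 genes. Both belong to families of near-identical members, so reads that also match relatives may be missing from the counts or misplaced. All 10 had an adjusted p of 4.18e-06, the smallest that any gene reached.

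On the lower side the same rule gave 10 genes of varied function. *COL8A1*, a short-chain collagen, was at 219, 245 and 219 CPM in WT and at 0.491, 0.621 and 0.478 CPM in CS16, a log2 fold change of -8.71 (SE 0.24). *COL12A1*, a collagen that decorates fibrils, fell from 458 ± 56.2 to 1.05 ± 0.204 CPM. *LGALS1*, which encodes the sugar-binding galectin-1, fell from 852 ± 170 to 2.97 ± 0.138 CPM. *BST2*, an interferon-induced protein that tethers viruses, was at 103 ± 8.66 CPM in WT and had 5 counts in the CS16 libraries together. *OSMR*, the oncostatin M receptor (-8.39), the carcinogen-activating *CYP1B1* (-7.45), the fatty acid-activating *ACSL5* (-8.92), the calcium-binding *S100A16* (-11.32), the carboxypeptidase *CPA4* (-8.40) and *MBP* (-7.89), best known from myelin, fell as well. Each of these 10 also had an adjusted p of 4.18e-06, and no CS16 library overlapped a WT library for any of them.

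Among called genes that took the largest share of counts, 5 per direction were followed. *PARP1*, the DNA damage sensor, stood at 237, 316 and 252 CPM in WT and at 1643, 1623 and 1663 CPM in CS16, a log2 fold change of 2.65 (SE 0.20). *STAG2*, a cohesin subunit, rose by 2.48, and the small cytoplasmic RNA *RN7SL3* by 3.56, although its near-identical relatives make the latter uncertain. The actin bundler *PLS3* (2.18) and the polyamine enzyme *AMD1* (2.27) were called with all libraries, but at 1.89 and 1.97 without WT replicate 2 they no longer reached the cut-off. On the lower side, *S100A6*, a calcium-binding protein, was at least 29520-fold lower, taking 3 counts in 1 library as the level of a group with no count. The scaffold *AHNAK* fell from 5272, 10472 and 3925 CPM to 185, 168 and 173 CPM, and the cytoskeletal linkers *PLEC* and *FLNA* fell by 5.76 and 2.78 on the log2 scale. For the latter 3 genes WT replicate 2 was far above the other WT libraries, and without it the log2 fold changes were -4.71, -4.35 and -2.14. The nuclear RNA *MALAT1* fell from 6173 ± 1352 to 374 ± 30.5 CPM.

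Factors of the epithelial to mesenchymal transition were not lower as a group. Of 10 listed, 8 were tested, 3 rose (*TWIST1*, *TWIST2* and *GSC*) and none fell. *TWIST1* had 2 counts in each WT library and 5.65, 5.26 and 4.22 CPM in CS16, a log2 fold change of 5.53 (SE 0.35). *TWIST2* and *GSC*, which had no count in WT, were at least 24.6-fold and 25.3-fold higher. *ZEB1* was at 110 ± 28.1 CPM in WT and 48.2 ± 6.04 CPM in CS16 (log2 fold change -1.16, adjusted p = 0.00471) and *ZEB2* at 16.5, 15.7 and 12.9 against 35.0, 30.1 and 34.7 CPM (1.17, adjusted p = 0.00168), both short of the fold-change cut-off.

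Mesenchymal matrix and adhesion genes moved in both directions. Of 32 listed genes 28 were tested, 6 rose and 17 fell, with a median log2 fold change of -2.88 against -0.03 over all genes. *FN1*, the fibronectin gene, was at 866, 1183 and 741 CPM in WT and at 119, 102 and 109 CPM in CS16 (log2 fold change -3.05, SE 0.24). *AXL*, a receptor kinase, fell from 1744 ± 595 to 0.252 ± 0.156 CPM, *THBS1*, an adhesive matrix glycoprotein, from 2765 ± 702 to 1.09 ± 0.254 CPM, and *CDH11*, a mesenchymal cadherin, from 309 ± 9.43 CPM to 1 count in all CS16 libraries. *COL1A2* had no count in CS16 and was at least 376.5-fold lower. *VIM*, the intermediate filament vimentin, stood at 922 ± 226 CPM in WT and 339 ± 17.4 CPM in CS16, a log2 fold change of -1.41 (adjusted p = 0.00131) that missed the cut-off.

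The 6 genes that rose were *CDH2*, *SPARC*, *MMP2*, *COL3A1*, *FBN2* and *PDGFRA*. *CDH2*, N-cadherin, went from 1.68, 0.343 and 1.85 CPM in WT to 32.9, 31.2 and 31.4 CPM in CS16. *SPARC*, a collagen-binding matricellular protein, went from 0.734 ± 0.0617 to 60.2 ± 2.40 CPM, and *FBN2*, fibrillin-2, from 0.0763 ± 0.132 to 188 ± 4.14 CPM. Genes with the same list name thus stood at opposite ends of the scale in the same libraries.

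Epithelial genes did not rise as a group. Of 22 junction genes 21 were tested, 3 rose and 7 fell (median -0.89), and of 15 regulators of the epithelial state 7 were tested, none rose and 5 fell (median -3.21). *CDH1*, E-cadherin, was at 1.88, 0.973 and 1.70 CPM in WT and at 4.52, 3.49 and 3.39 CPM in CS16. Its groups did not overlap, but the log2 fold change of 1.35 (SE 0.32, adjusted p = 0.00946) was below the cut-off. The desmosomal cadherin *DSC2* rose by 3.96 and the tight junction protein cingulin (*CGN*) by 2.50, while the adhesion molecule *EPCAM* had a log2 fold change of -5.16 and the tight junction gene *CLDN4* one of -9.02. *GRHL2*, *OVOL1* and *ESRP1*, which maintain epithelial identity, stayed below 0.3 CPM in every WT and CS16 library.

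The basal mammary list fell almost completely: 12 of 13 genes tested were lower, none was higher, and their median was -5.93 on the log2 scale, or -5.00 with genes that had no count in a group set to their bound. *EGFR*, the epidermal growth factor receptor, went from 390, 666 and 301 CPM to 18.9, 12.2 and 15.4 CPM. *LAMB3*, a chain of laminin-332, went from 651 ± 194 to 0.212 ± 0.0765 CPM, and *ITGB4*, the integrin that binds it, from 430 ± 333 to 0.887 ± 0.733 CPM. The keratin gene *KRT81* had no count in CS16 and was at least 93.9-fold lower. Only *MET* was tested without a call.

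Luminal mammary genes fell more often than they rose, with 11 of 18 tested lower, 3 higher and a median of -3.18. The simple-epithelium keratin *KRT19* had no count in any CS16 library and was at least 2844-fold lower, and *KRT18* fell by 3.49 on the log2 scale, from 564 ± 53.3 to 49.0 ± 0.544 CPM. *FOXA1* and *ERBB4* were among the genes that rose. *FOXA1*, a pioneer factor of luminal cells, had 2 counts in WT and 3.09, 4.11 and 2.87 CPM in CS16. *ESR1*, the estrogen receptor, was too low to be tested, below 0.5 CPM in each of the 6 libraries.

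**Figure D2:**
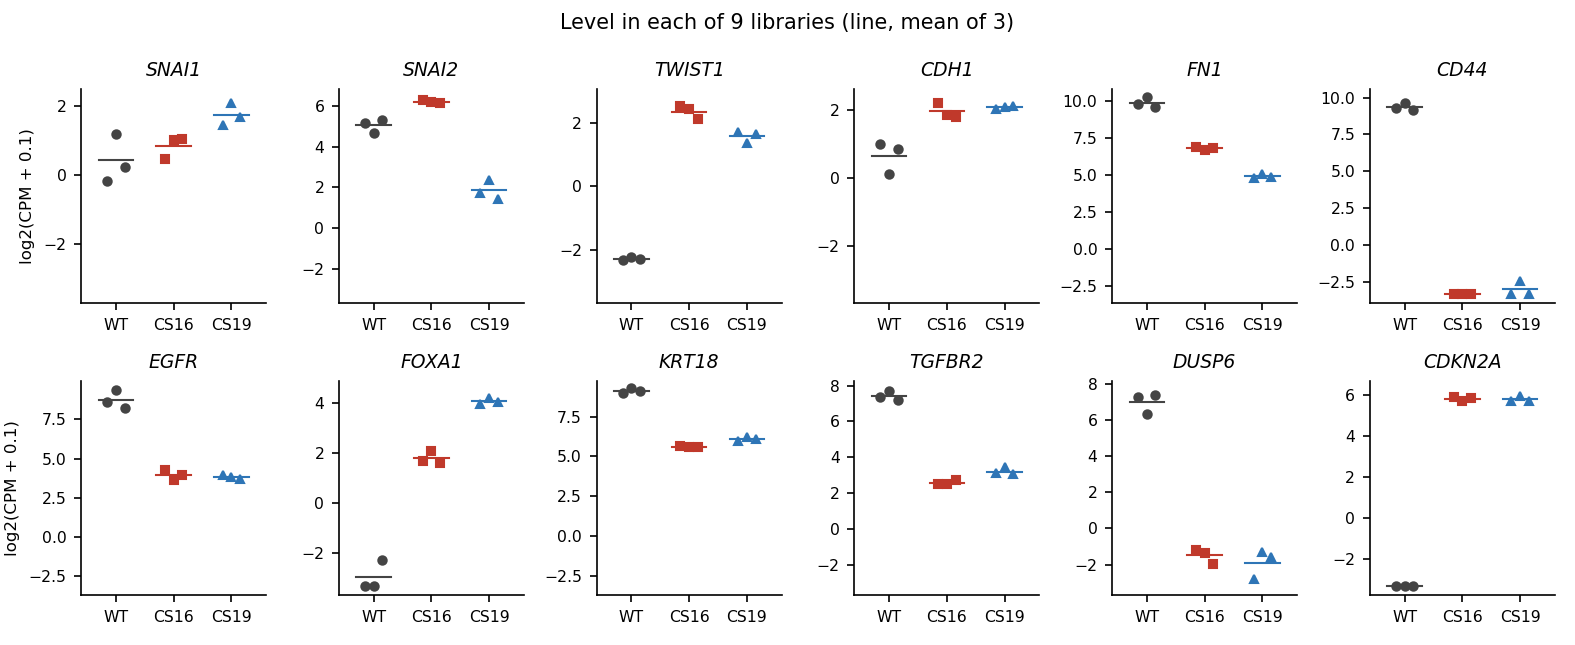
Level of 12 genes of the lists as log2(CPM + 0.1) in each WT (circles), CS16 (squares) and CS19 (triangles) library, with a line at the mean of 3. CS16 lies near CS19 and far from WT for *CD44*, *EGFR*, *DUSP6* and *CDKN2A*, whereas *SNAI2*, *FN1* and *FOXA1* differ between the clones, and the WT and CS16 points of *SNAI1* overlap.

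TGFβ signalling induces *SNAI1* in many epithelial cells, and its genes were followed from ligand to target. Among ligands and latency proteins 6 of 9 genes tested fell, or 3 of 9 without WT replicate 2, and none rose, among receptors 1 of 11 fell, among SMADs and their inhibitors 3 rose and 3 fell of 12, or 2 and 2 without that library, and among targets 4 fell and 1 rose of 8. *TGFBR2*, the type II receptor, was at 162, 209 and 148 CPM in WT and at 5.50, 5.50 and 6.46 CPM in CS16 (log2 fold change -4.86, SE 0.23). *TGFB2* fell from 129 ± 29.1 to 2.18 ± 0.564 CPM and the signal transducer *SMAD3* from 218 ± 71.6 to 29.0 ± 1.23 CPM. *TGFB1* was called lower at -3.17, but 1 WT library was at 129 CPM and the others at 24.2 and 23.4 CPM, and without WT replicate 2 the value of -1.89 missed the cut-off. On the BMP side, *SMAD9* rose from 1.83, 2.23 and 1.95 to 35.5, 36.8 and 35.7 CPM, and *ID2*, the target that rose, is described above.

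Most genes that report RAS-MAPK activity fell. Of 10 feedback inhibitors tested, 8 were lower and none higher (median -3.43), and of 18 transcriptional outputs 14 were lower and none higher (median -4.05), against 15.3% lower among all genes. Without WT replicate 2 the lower genes were 7 and 13. *DUSP6*, a phosphatase of ERK, was at 155, 83.2 and 168 CPM in WT and at 0.344, 0.287 and 0.159 CPM in CS16. *DUSP4* fell from 434 ± 48.9 to 3.42 ± 0.428 CPM, and the AP-1 factor *FOSL1* from 70.2, 456 and 77.2 to 0.295, 0.335 and 0.518 CPM. *EREG*, an EGFR ligand, had 1 count in CS16. *MYC* was at 123 ± 26.6 and 169 ± 11.8 CPM and was not called (adjusted p = 0.0763).

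Stem cell genes split. Of 16 tested, 7 rose and 5 fell, and without WT replicate 2 it was 9 and 5 of 18. *LIN28B*, which blocks maturation of let-7 microRNAs, had no count in WT and 239, 229 and 225 CPM in CS16, at least 1346-fold higher. *IGF2BP1*, an oncofetal RNA-binding protein, had 2 counts in WT and 264 ± 19.7 CPM in CS16. *SOX2*, a pluripotency factor, rose by 5.33 and the receptor *KIT* by 7.39 on the log2 scale. *CD44*, the hyaluronan receptor used to define breast cancer stem cells, was at 631, 792 and 573 CPM in WT and at 0 in CS16, at least 4517-fold lower.

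Membrane and calcium-binding genes differed by family. Of 8 caveolar genes tested 6 were lower, of 9 annexins 4 (median -1.85) and of 8 S100 genes 7, against 15.3% of all genes, and none of these was higher. *CAV1*, the coat protein of caveolae, was at 1211, 618 and 1400 CPM in WT and at 25.2, 22.1 and 24.3 CPM in CS16. *ANXA2*, a calcium-dependent membrane binder, fell from 2003 ± 452 to 166 ± 3.98 CPM.

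Most genes of the MHC class I, interferon and cytokine lists were lower, and fewer of the NF-κB list. For MHC class I presentation 11 of 15 genes tested fell (median -2.64), for interferon-stimulated genes 14 of 18 (median -6.22, or -5.37 with bounds), for cytokines and chemokines 11 of 12 (median -7.10, or -4.04 with bounds) and for the NF-κB list 5 of 11 (median -1.97), and no gene of these lists rose. *TAPBP*, the peptide loading factor tapasin, fell by 6.15 on the log2 scale, the ubiquitin-like *ISG15* by 6.21 and the apoptosis inhibitor *BIRC3* by 8.52. *B2M*, the light chain of MHC class I, was at -1.99 just short of the cut-off and was called at -2.33 without WT replicate 2. *IL6* had 12.3, 7.38 and 9.46 CPM in WT and 2 counts in CS16.

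Laminin and integrin genes moved in both directions, and more protease genes fell than rose. Of 11 laminin genes tested 3 rose and 5 fell, and of 18 integrin genes 4 rose and 10 fell. *LAMA1*, an embryonic laminin chain, went from 0.593, 0.286 and 1.18 CPM to 62.5, 62.1 and 59.4 CPM, while *LAMC1*, shared by many laminins, was at 429 ± 26.5 and 386 ± 20.4 CPM and was not called. *ITGA3* fell from 2006 ± 1064 to 5.81 ± 0.926 CPM, and *ITGA4*, without a count in WT, was at least 47.7-fold higher at 8.19 ± 0.709 CPM. Of 21 matrix proteases tested 10 fell and 3 rose, the latter a share near the 11.8% of all genes. Of 8 protease inhibitors 6 fell and none rose. *MMP14*, the membrane-type collagenase, fell from 485, 968 and 533 to 1.03, 0.812 and 0.438 CPM, *PLAU*, urokinase, from 411 ± 38.3 to 1.06 ± 0.270 CPM, and the inhibitor *TIMP3* from 795 ± 18.2 to 70.8 ± 2.36 CPM.

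WNT ligands and receptors divided into 7 higher and 8 lower of 21 tested, or 8 higher and 6 lower without WT replicate 2, and WNT inhibitors, factors and targets into 3 higher and 1 lower of 11. *WNT5A* had 1 count in WT and 52.9, 50.5 and 47.2 CPM in CS16. The secreted inhibitor *DKK1* fell from 451, 186 and 540 CPM to 1.96, 2.29 and 1.99 CPM, whereas another, *SFRP1*, rose from 1.45 ± 0.824 to 31.0 ± 0.518 CPM. *CTNNB1*, β-catenin itself, was at 756 ± 189 and 709 ± 79.8 CPM and was not called. Of 16 steroid enzymes tested 2 rose, a share near the 11.8% of all genes, and 6 fell, or 8 of 18 without WT replicate 2. *AKR1C3*, a ketosteroid reductase, went from 182 ± 82.0 CPM to 7 counts in CS16, and aromatase (*CYP19A1*) from 0.0705 ± 0.0780 to 1.57 ± 0.472 CPM.

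Of 30 cell cycle genes tested, 29 were not called, and the log2 fold changes ran from -2.34 to 1.36 with a median of 0.06. The one exception, *MKI67*, was at 799, 1963 and 466 CPM in WT and at 244, 184 and 198 CPM in CS16, and its log2 fold change of -2.34 became -1.60 without WT replicate 2, below the cut-off. Among 9 inhibitors of the cycle, *CDKN2A* and *CDKN2B* rose and *CDKN2D* fell.

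Markers of other cell types were counted too. The neuronal and neuroendocrine list had 20 genes, 8 of them without a count in WT. Of 13 tested, 8 rose and 3 fell, and 5 had no count in 1 of the groups. Those without a WT count passed the filter through CS16 alone, so they could only rise. The list's summed level was 83.8 to 117.7 CPM in WT and 406 to 471 CPM in CS16. *NEFL*, a neurofilament subunit, and *UCHL1*, a neuronal ubiquitin hydrolase, had no count in WT and were at least 784-fold and 1094-fold higher. Together they made up most of the CS16 sum, so it does not stand for the list as a whole. The defining gene *STMN2* was at or near 0 in CS16. Of the embryonic kidney list 7 of 12 rose and 2 fell, with a summed level of 84.7 to 125 CPM in WT and 195 to 203 CPM in CS16. *SALL1*, a factor of the kidney mesenchyme, was at least 129-fold higher, while *PAX8*, which marks the same organ, had no count in CS16 and was at least 109-fold lower, and *PAX2* stayed below 0.4 CPM. The summed haematopoietic markers were at 264 to 481 CPM in WT and 26.6 to 27.8 CPM in CS16, with 4 of 10 higher and 3 lower. Fibroblast markers were at 62.3 to 133 and 69.3 to 72.7 CPM (2 of 7 higher, 2 lower), endothelial at 12.6 to 16.1 and 49.6 to 54.9 CPM (1 of 4 higher, 2 lower), prostate at 60.0 to 68.0 and 52.7 to 56.8 CPM (1 of 5 higher, 2 lower) and melanocytic at 31.1 to 43.9 and 21.7 to 23.3 CPM (1 of 5 higher, none lower). Hepatocyte markers were at 29.5 to 42.6 CPM in WT and below 0.3 CPM in CS16, and the only gene of that list tested was lower. No list was high as a whole, so CS16 is given no other cell type name, and the part of such cells in the results was not tested.

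**Figure D3:**
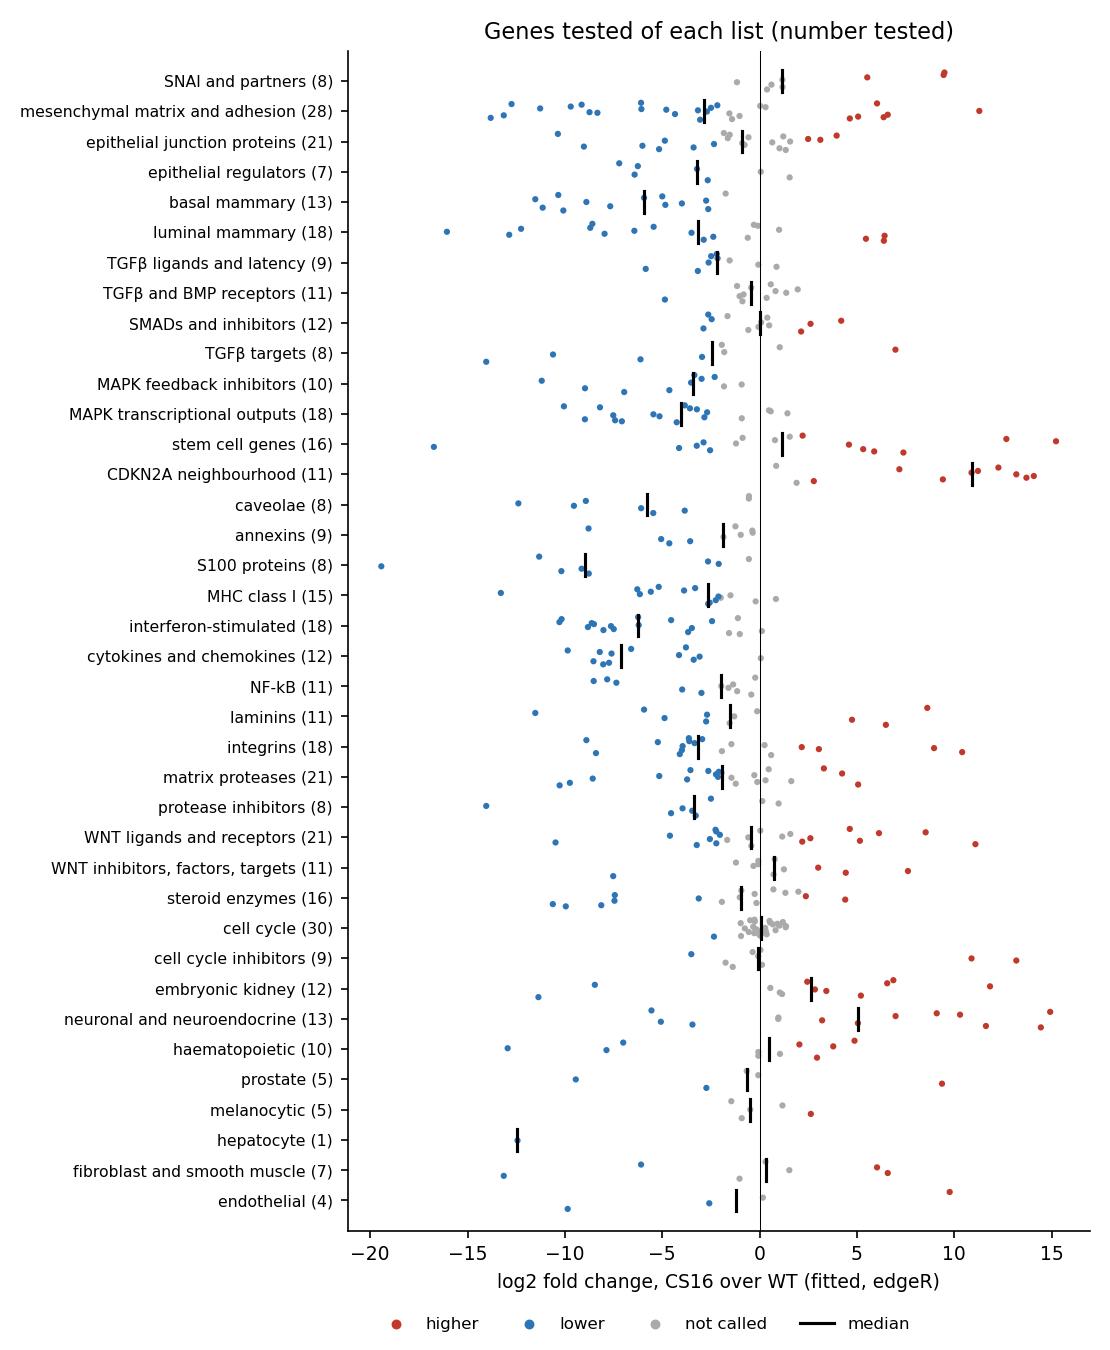
Fitted log2 fold change of CS16 over WT (x axis) for each gene tested of each list (y axis, with the number tested), coloured by call, with a bar at the list's median. Values of genes with no count in a group depend on the fit and are no bounds. Basal, MAPK, S100, interferon and cytokine genes lie to the left, the *CDKN2A* neighbourhood to the right, and cell cycle genes on both sides of 0.

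Many genes were present in one group and absent from the other. Defined as at least 5 CPM in each library of one group and at most 3 counts in each of the other, 296 genes were on in CS16 and off in WT, 123 of them without a single WT count. Another 289 were on in WT and off in CS16. Of the 296 genes, 1 was also off in all CS19 libraries, *ERBB4*. Of the 289 genes, 240 were also off in CS19 and none was on there.

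Switched genes sat side by side in some places. A rule set after the data were seen looked for at least 4 neighbours among genes at 1 CPM or more in each library of a group, all with at most 3 counts in each library of the other. It found 9 stretches with 55 genes on in CS16 and 13 stretches with 69 genes on in WT. Nearly all of these genes had the same on or off state in CS19, so the stretches were not particular to CS16. Of the 9, 5 were homeobox or histone clusters and 1 held *CDKN2A*, from *HACD4* to *ELAVL2* (chr9:20999509-23826337). The homeobox cluster on chromosome 7 was on from *HOXA5* to *HOXA11* in CS16, that on chromosome 2 from *HOXD8* to *HOXD13*, and that on chromosome 12 from *HOXC10* to *HOXC13*. Their products set position along the body axis. A run of 8 histone genes on chromosome 6 was on as well, from *H4C4* to *H3C7*, with the family caveat given above.

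Stretches that were silent in CS16 held keratin genes on chromosome 12 (*KRT80* to *KRT81*), the filaggrin and S100 genes on chromosome 1 (*FLG* to *S100A6*), the aldo-keto reductases on chromosome 10 (*AKR1C1* and *AKR1C2*), zinc-finger genes on chromosome 19 (*ZNF253* to *ZNF486*) and protocadherins on chromosome 5 (*PCDHB8* to *PCDHB15*). Reads of protocadherins, keratins and zinc-finger genes may be shared with close relatives.

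What set CS16 apart from WT and from CS19 alike was a much smaller set. Of 17538 genes tested between the clones, 198 were called (1.13%), with 0.633% of genes tested higher in CS16 and 0.496%, or 87 genes, lower. Of these, 67 were higher in CS16 than in both WT and CS19 and 27 were lower than in both. Both comparisons share the CS16 libraries, so these counts describe a selection. Leaving out WT replicate 2 gave 68 and 27 genes, of which 66 and 26 were in the first selection. In WT, CS16 and CS19 in turn, the 67 genes had median levels of 0.034, 2.58 and 0.204 CPM, and the 27 genes of 7.12, 0.320 and 2.78 CPM.

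The genes with the smallest adjusted p against CS19 were not a uniform class. *ADAMTS1* (chr21:26835755-26845409), a secreted protease that cleaves proteoglycans, was at 18.6, 23.3 and 19.5 CPM in WT, at 383, 399 and 356 CPM in CS16 and at 47.7, 45.4 and 50.6 CPM in CS19. CS16 was higher than WT by 4.24 (SE 0.19) and higher than CS19 by 2.98 (SE 0.07, adjusted p = 1.08e-10) on the log2 scale. *COL3A1*, a fibrillar collagen, was at 0.599 ± 0.190, 56.6 ± 2.41 and 6.27 ± 0.766 CPM in WT, CS16 and CS19. *DPYSL3*, a cytoskeletal protein of growth cones, was at 5.39 ± 1.07, 34.0 ± 0.110 and 2.84 ± 0.350 CPM, so that CS19 was below WT. *AMOT*, angiomotin, a scaffold of tight junctions and the Hippo pathway, had 4 counts in WT and 362, 338 and 340 CPM in CS16, against 72.7, 65.9 and 62.5 CPM in CS19. *FOXO4*, a forkhead factor restrained by AKT, was at 6.36 ± 0.340, 83.6 ± 2.16 and 17.0 ± 0.647 CPM.

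*CA2* and *CA8*, both of the carbonic anhydrase family, were both in this set. *CA8* had no count in WT, 19.3, 19.7 and 20.1 CPM in CS16 and 1.32, 0.999 and 1.38 CPM in CS19, and *CA2* was 2.72 higher than in CS19 on the log2 scale (SE 0.10). The netrin receptor *UNC5C* was at 42.8, 39.3 and 37.8 CPM in CS16 and 8.61, 10.3 and 9.05 CPM in CS19, the enamel matrix gene *AMBN* at 21.6 ± 1.97 and 3.16 ± 0.487 CPM, *BRINP3* at 10.0 ± 1.60 and 0.894 ± 0.138 CPM and the irritant-sensing channel *TRPA1* at 7.71, 6.98 and 7.81 against 0.592, 0.956 and 0.623 CPM. The latter 3 had no count in WT. *ERBB4*, a receptor for neuregulins, was at 7.07, 5.88 and 6.30 CPM in CS16 and had 4 counts each in WT and CS19. Its log2 fold change against CS19 was 6.78 (SE 0.32, adjusted p = 1.08e-08). By the rule above it was the only gene on in CS16 and off in both others, which depends on the cut-off. *SMPX*, at 6.16 ± 0.217 CPM in CS16, missed the rule with 4 counts in 1 WT library.

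Genes lower in CS16 than in both others had various functions. *PODXL*, a sialomucin of the apical surface, was at 393, 832 and 337 CPM in WT, 18.2, 20.7 and 18.8 CPM in CS16 and 71.9, 85.7 and 74.6 CPM in CS19. Its log2 fold change of -2.01 against CS19 lay at the cut-off, and the call was lost with DESeq2 (-1.99), without CS16 replicate 1 (-1.97) or 3 (-1.99) and without CS19 replicate 2 (-1.93). *ENO2*, neuron-specific enolase, was at 75.5 ± 16.9, 1.57 ± 0.168 and 9.23 ± 0.703 CPM, 1 of the 3 genes of the neuronal list that fell. *ANKRD1*, a target of YAP, was at 345, 168 and 390 CPM in WT, 2.46, 2.15 and 2.31 CPM in CS16 and 8.42, 10.6 and 10.6 CPM in CS19. *CLDN1*, a barrier claudin, was at 1.99 ± 0.196, 0.179 ± 0.0279 and 3.27 ± 0.444 CPM and *MAGEH1* at 5.47 ± 1.60, 0.228 ± 0.0250 and 4.50 ± 0.762 CPM, so that for both genes CS19 was far nearer to WT than CS16 was. *CPQ*, *NIBAN1*, *TFPI2*, *NOXA1*, *LRRK1* and *LINC01605* were lower than in WT by 4.58, 6.87, 5.54, 3.77, 5.24 and 2.88 and lower than in CS19 by 3.54, 2.52, 2.18, 2.85, 2.13 and 2.58 on the log2 scale. Without CS19 replicate 2 *LRRK1* was at -1.95 against CS19 and was not called. *HID1* was called against WT at -2.23, but only with WT replicate 2, which was at 14.2 CPM beside 4.40 and 4.99 CPM in the other WT libraries, and it stood at -1.52 without it. Counting did not use strand, and exons of many genes named here, among them *CDKN2A*, *CD44*, *FOXA1*, *CCND1*, *COL3A1*, *AMOT*, *UNC5C*, *BRINP3*, *TRPA1*, *NOXA1*, *TFPI2* and *LRRK1*, overlap those of other genes, so reads of these could not be fully separated.

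**Figure D4:**
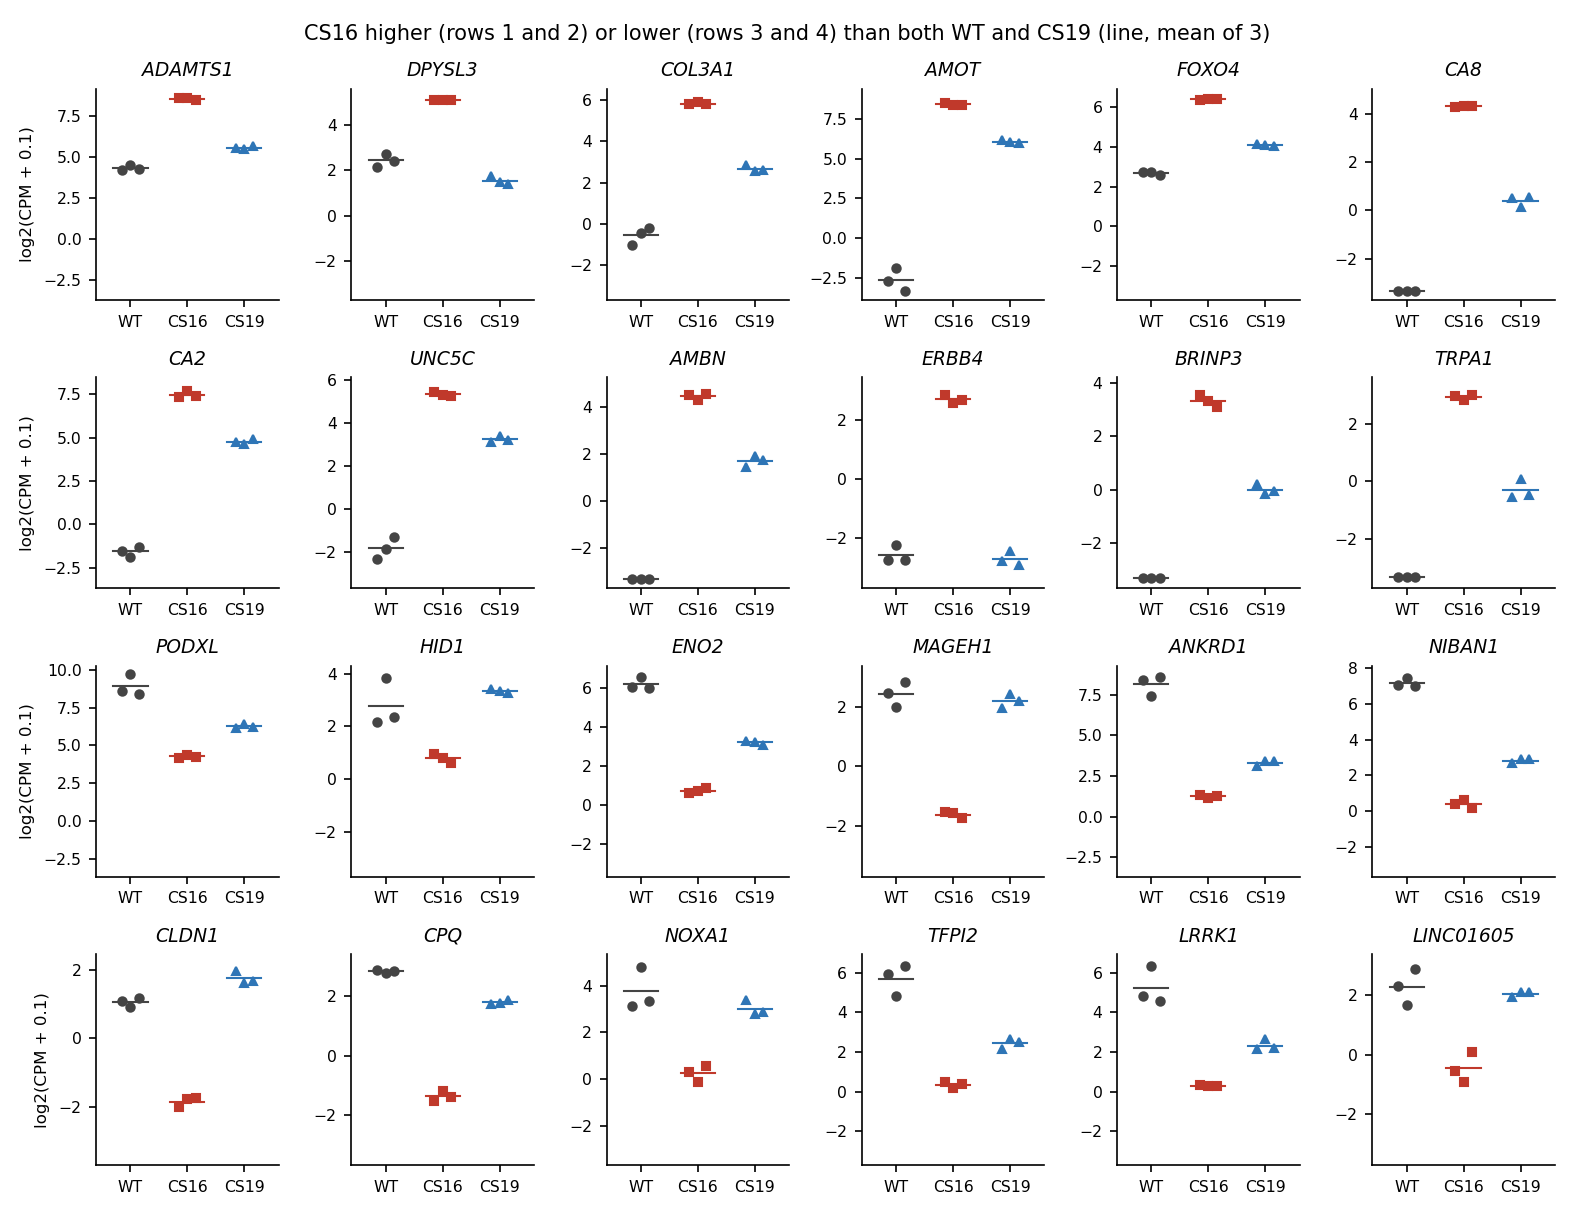
Level of the 24 genes with the smallest adjusted p against CS19 among those where CS16 was higher (upper 2 rows) or lower (lower 2 rows) than both WT and CS19, as log2(CPM + 0.1) in each library, with a line at the mean of 3. CS16 libraries lie close together in each panel, and *ERBB4* is at the same low level in WT and CS19.

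Other genes of the lists also differed between the clones. *CCND1*, cyclin D1, was at 700, 1079 and 767 CPM in WT, 95.5, 87.1 and 85.3 CPM in CS16 and 11.9, 11.7 and 10.1 CPM in CS19, so CS16 was above CS19 by 2.99 on the log2 scale (SE 0.09, adjusted p = 2.38e-10). *TNC*, tenascin-C, was at 154 ± 56.4, 2.24 ± 0.324 and 0.281 ± 0.0331 CPM. *FN1* was higher in CS16 than in CS19 by 1.88 (SE 0.09, adjusted p = 7.13e-09), which missed the cut-off. *FOXA1* was lower than in CS19, at 15.3, 18.2 and 16.2 CPM there, by 2.31 (SE 0.14, adjusted p = 1.03e-07). *TFAP2A*, a factor of the mammary epithelium, was at 6.20 ± 5.24, 5.72 ± 1.03 and 0.970 ± 0.203 CPM in the same order. *HCLS1*, an actin regulator of blood cells, was at 1.19 ± 0.131, 9.04 ± 0.705 and 0.165 ± 0.184 CPM, and the WNT receptor *FZD10*, without a count in WT, was at 2.22 ± 0.398 CPM in CS16 against 0.0480 ± 0.0492 CPM in CS19. The matrix genes *LUM* and *LAMA2* were higher than in CS19 by 3.31 and 2.76, and *DMRTA1* near *CDKN2A* by 2.55, but these were below 4 CPM in every library. The call of *DMRTA1* was lost in a fit of all 3 groups and with glmTreat, which tests against a minimum fold, and that of *LAMA2* with glmTreat.

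Of 30 genes looked up, only 16 had a window in the RefSeq table, all of them genes that separated CS16 from CS19. Of these 16, 2 held the E-box that *SNAI1* is known to bind in the sequence before their start and are shown for that reason. The other 14, among them *ERBB4*, *TNC*, *CLDN1* and *AMOT*, had none. The 250 bases that precede the RefSeq start (GRCh38.p14), in the direction of the gene, are in lower case, with CAGGTG or its reverse complement CACCTG in capitals. They are given for *FOXA1* (chr14:37595250-37595499, minus strand), higher than in WT but lower than in CS19, and for *ANKRD1* (chr10:90921088-90921337, minus strand), lower than in both.
FOXA1: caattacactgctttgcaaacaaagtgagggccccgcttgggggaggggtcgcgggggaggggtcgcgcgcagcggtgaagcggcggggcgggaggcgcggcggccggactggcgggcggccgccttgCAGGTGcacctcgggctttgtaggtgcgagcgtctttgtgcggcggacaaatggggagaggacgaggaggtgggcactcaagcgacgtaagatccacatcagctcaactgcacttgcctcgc
ANKRD1: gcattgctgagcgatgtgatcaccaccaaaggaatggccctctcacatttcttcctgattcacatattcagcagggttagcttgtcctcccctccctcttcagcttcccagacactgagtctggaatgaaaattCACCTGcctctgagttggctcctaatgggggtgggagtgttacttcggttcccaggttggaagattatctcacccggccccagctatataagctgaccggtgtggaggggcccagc
In *FOXA1* the motif is CAGGTG with its first base at -122 from the start, and in *ANKRD1* it is CACCTG at -116. Of all 35116 windows of this length in the table, 17.5% hold 1 of these motifs on either strand, so a match is common. Only 67.0% of the genes tested could be matched to a window, which voids any share over the called genes, and none is given. The 2 genes moved in opposite directions against WT.

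Where on the genome CS16 and CS19 differed was examined through medians over neighbouring genes. The median log2 fold change of CS16 over CS19 was 0.44 on chromosome 5 (750 genes) and 0.40 on chromosome 13 (309 genes), against -0.02 over all genes and between -0.13 and 0.13 on every other nuclear chromosome. On chromosome 5, 86.5% of genes were above 0, and all 15 windows of 10 Mb with at least 20 genes had medians between 0.31 and 0.69. Of 271 such windows in the genome, 30 had a median above 0.3 and 1 was below -0.3. Besides the 15 on chromosome 5 they were 4 on chromosome 13 between 20 and 60 Mb (0.45 to 0.71), 6 on chromosome 6 between 110 and 170 Mb (0.32 to 0.52), 4 on chromosome 1 between 200 and 240 Mb (0.33 to 0.45) and 1 on chromosome 21 (0.34). With only genes of at least 10 CPM the medians of chromosomes 5 and 13 were 0.50 and 0.50. Single genes called were 6 of 750 on chromosome 5 (0.8%) and 5 of 309 on chromosome 13 (1.62%), against 1.13% of all genes tested. The X chromosome held 24 of the 198 calls (4.23% of its genes tested).

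**Figure D5:**
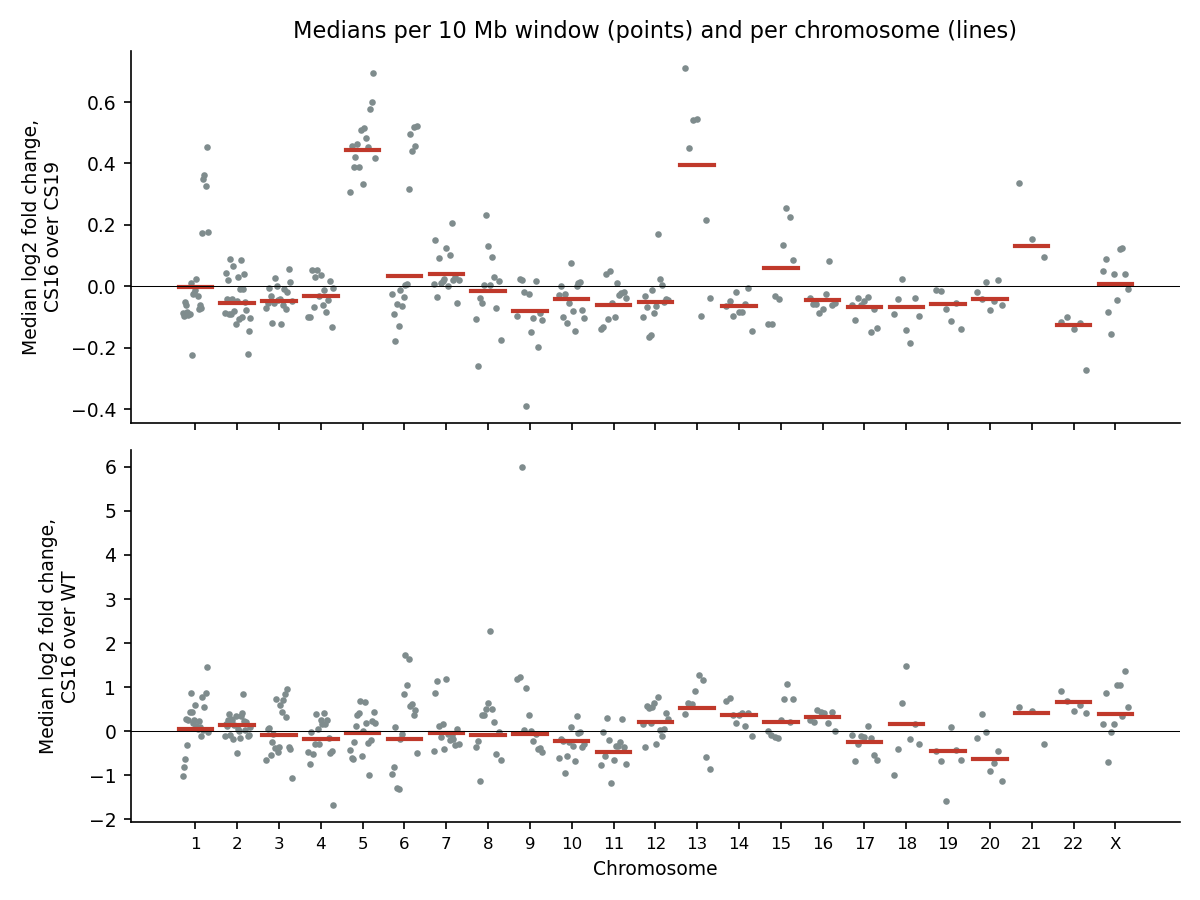
Median log2 fold change per 10 Mb window with at least 20 genes (points, in order along each chromosome) and per chromosome (lines), for CS16 over CS19 (upper panel) and CS16 over WT (lower panel, wider scale). All points of chromosome 5 and a run of points on chromosomes 1, 6 and 13 lie above the rest in the upper panel, and 1 window of chromosome 9 lies at about 6 in the lower panel.

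Against WT, medians by chromosome ranged from -0.63 on chromosome 20 to 0.66 on chromosome 22, with -0.04 on chromosome 5 and 0.53 on chromosome 13, which were -0.16 and 0.32 without WT replicate 2. Without that library, chromosomes 20 and 22 were at -0.50 and 0.86. Mitochondrial genes had a median of -2.86 over 18 genes, which was -1.26 without WT replicate 2, the library with the highest mitochondrial share. The window on chromosome 9 that contains *CDKN2A* had the highest median of all windows.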

How the data were processed

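RNA was sequenced from 3 WT and 3 CS16 libraries (TruSeq stranded total RNA, RiboZero), with 3 CS19 libraries for the comparison between clones. The authors trimmed reads with Trimmomatic 0.36, aligned them to GRCh38.p13 with STAR 2.7.2b and deposited raw counts per gene, made, per the file headers, with featureCounts 2.0.0 over gencode release 38, without strand and with a minimum mapping quality of 30. Each table listed 60708 genes, and 99.6% of identifiers were matched to a symbol.

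Genes were filtered with filterByExpr, scaled by TMM and tested with edgeR 4.0.16 (quasi-likelihood, R 4.3.3) on CS16 and WT libraries alone, with Benjamini-Hochberg adjustment over all genes tested. CS16 and CS19 were fitted likewise. Genes were called where the fitted log2 fold change was 2 or more up or down with an adjusted p below 0.05. CPM of all 9 libraries share 1 scaling. Of the scripts, only the edgeR step was tested on simulated counts. Far fewer genes were changed there than were called against WT. DESeq2 1.42.0, other scalings, filters and cut-offs and single left-out libraries were alternatives. The package limma 3.58.1 was loaded with edgeR and ran no test of its own. Total counts of 19726839 to 24770095 per library set the precision.

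Genes named were the targeted gene and its paralog, per direction the 10 smallest adjusted p and the 5 highest levels among called genes, the 12 smallest adjusted p against CS19 per direction among genes apart from both groups, and members of gene lists. Members and lists were chosen with earlier results of these data known, and the rule for neighbouring genes and the chromosome medians at 10 CPM after the data were seen. Some genes of the lists are not reported here by name.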

Additional observations from a re-analysis of the deposited data

Results flagged for a closer look

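Named genes whose level differed between the clones by the test of that difference (edgeR, adjusted p below 0.05 and a log2 fold change of at least 2) are given here with the log2 fold change of CS16 over CS19. Both clones were set against the same WT libraries, and only the direct comparison of the clones was tested. Many of these genes were named because they separated CS16 from CS19, so the values describe that choice. Groups of 3 libraries were not searched for single outlying libraries.

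Those higher in CS16 were *ERBB4* 6.78, *HCLS1* 5.78, *FZD10* 5.25, *SNAI2* 4.36, *CA8* 3.98, *DPYSL3* 3.59, *BRINP3* 3.48, *TRPA1* 3.37, *LUM* 3.31 and *COL3A1* 3.17. Next came *CCND1* 2.99, *ADAMTS1* 2.98, *TNC* 2.98, *AMBN* 2.76, *LAMA2* 2.76, *CA2* 2.72, *DMRTA1* 2.55, *TFAP2A* 2.52, *AMOT* 2.37, *FOXO4* 2.29 and *UNC5C* 2.09.

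Lower in CS16 were *MAGEH1* -4.29, *CLDN1* -4.14, *CPQ* -3.54, *NOXA1* -2.85, *HID1* -2.63, *LINC01605* -2.58, *ENO2* -2.55, *NIBAN1* -2.52, *FOXA1* -2.31, *TFPI2* -2.18, *LRRK1* -2.13, *ANKRD1* -2.10 and *PODXL* -2.01. The calls of *PODXL*, *LRRK1*, *DMRTA1* and *LAMA2* were lost under some alternatives. What the differences come from was not tested.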

How the results depend on the processing

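Other scalings, DESeq2, the shared fit of 3 groups, glmTreat and the count filter kept the number of called genes within 1.5 times its value in each comparison. Without a filter 352 genes were called between the clones and 160 were apart from both groups. With the adjusted p alone, 10342 genes were called against WT, 4814 against CS19 and 2041 apart from both, and with a log2 fold change of at least 1 the counts were 8567, 833 and 352. The last cut-off lowered the share of higher calls against CS19 from 56.1% to 39.0%. With a level of 1 CPM in place of 5, 1286 genes were switched, 650 on in CS16 and 636 on in WT. Leaving out single libraries gave 5176 to 5823 calls against WT, and 224 to 258 against CS19. Genes apart from both numbered at least 91, and at most 78 higher and 38 lower without CS16 replicate 2.

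Without WT replicate 2, over the same genes, the chromosome medians against WT moved by more than the spread between WT libraries on chromosomes 1 (0.0348), 6 (-0.29), 7 (-0.0265), 9 (-0.0156), 11 (-0.41), 13 (0.32), 14 (0.30), 18 (0.0065), 21 (0.36) and X (0.35) and for mitochondrial genes (-1.26). That spread includes WT replicate 2 itself, so some large moves stayed within it. Chromosome 16 went from 0.32 to 0.52, 19 from -0.45 to -0.17, 20 from -0.63 to -0.50 and 22 from 0.66 to 0.86. The causes were not tested.

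Replicate numbers did not pair the libraries: deviations of same-numbered CS16 and WT libraries correlated at -0.034, -0.296 and -0.234. With a replicate block 4943 genes were called against WT, 201 against CS19 and 95 apart from both, and no call of a named gene changed. No value of a named gene changed direction with a call. Low counts limit the genes near 3 counts in a library.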
